A study of Mus musculus with 16 samples.

Results

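The 10 genes Clec4f, Vsig4, Timd4, Marco, Cd5l, Adgre1, Csf1r, Cd68, C1qa and C1qb mark Kupffer cells and other macrophages, and their transcripts were followed in mouse liver RNA. They were the rows of the count table that carry these 10 symbols, out of 41585 rows, and all 10 passed the filter on low counts that left 13470 genes for testing. The 4 groups were hCYP2B6-Tg females, Cyp2b-null females, hCYP2B6-Tg males and Cyp2b-null males, with 4 libraries each and 16 in all. Libraries go by the number in their titles, and values are listed in that order: 1, 2, 4 and 5 for hCYP2B6-Tg females, 1, 3, 4 and 5 for Cyp2b-null females, 2, 3, 4 and 5 for hCYP2B6-Tg males and 1, 2, 3 and 4 for Cyp2b-null males. All mice were C57BL/6 and had eaten a diet of 60% fat for 16 weeks. Per the labels, hCYP2B6-Tg mice differ from Cyp2b-null mice in carrying human CYP2B6, an enzyme that oxidises drugs, steroids and fatty acids; the labels give neither the promoter of the transgene nor the age of the mice. The study asked how human CYP2B6 bears on obesity caused by diet. No label states that each library came from a separate animal, so the p-values reflect how libraries of a group vary, and that variation may be technical.

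Kupffer cells are the macrophages that live inside the blood sinusoids of the liver. They take up bacteria, complement-coated particles, dying red cells and modified lipoproteins from portal blood, and they depend on signals through the CSF1 receptor. In fatty liver disease of the mouse, resident Kupffer cells can be replaced in part by macrophages that derive from blood monocytes and at first lack Timd4. Clec4f is a lectin that rodent Kupffer cells express almost alone among liver cells. Vsig4 is a receptor for complement C3 fragments, Timd4 binds phosphatidylserine on dying cells, and Marco is a scavenger receptor for bacteria and particles. Cd5l is a secreted protein that circulates with IgM. Adgre1 encodes the F4/80 antigen, Csf1r the receptor for the growth factors CSF1 and IL-34, and Cd68 a glycoprotein of the lysosome membrane. C1qa and C1qb are chains of C1q, which starts the classical complement pathway and which macrophages make.

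The libraries held 5584587 to 9672708 counts, and the 3 counts taken as the floor of detection corresponded to 0.312 to 0.540 CPM (counts scaled to the TMM-adjusted library total). Xist and Ddx3y matched the labelled sex in all 16 libraries. The summed counts of the mouse genes Cyp2b10, Cyp2b19 and Cyp2b23 were 9 to 26 in hCYP2B6-Tg females, against 0 or 1 in Cyp2b-null females, and 6 to 50 in hCYP2B6-Tg males, against 0 or 1 in Cyp2b-null males. Whether these counts stem from RNA of the mouse genes or from reads of the human transgene was not tested. Every marker was detected in every group, the lowest sum over 4 libraries being the 181 counts of Marco in hCYP2B6-Tg males. RNA came from whole liver, so fewer macrophages and less RNA per macrophage cannot be told apart.

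The promoters of 4 markers are shown because their transcripts gave the clearest results below: Vsig4, C1qb and Clec4f for the difference between the sexes, and Cd5l for following the other markers most closely from library to library. The sequences are from RefSeq on GRCm38.p6, run from 250 bases before to 50 bases after the annotated start, and are written 5′ to 3′ on the strand of the gene. Capitals mark GAGGAA, a core of sites for PU.1 (the factor of the macrophage lineage encoded by Spi1), on either strand, where the other strand reads TTCCTC. Vsig4 lies on the minus strand, at chrX:96293389-96293688, C1qb on the minus strand at chr4:136886151-136886450, Cd5l on the plus strand at chr3:87357631-87357930 and Clec4f on the minus strand at chr6:83656067-83656366.
Vsig4: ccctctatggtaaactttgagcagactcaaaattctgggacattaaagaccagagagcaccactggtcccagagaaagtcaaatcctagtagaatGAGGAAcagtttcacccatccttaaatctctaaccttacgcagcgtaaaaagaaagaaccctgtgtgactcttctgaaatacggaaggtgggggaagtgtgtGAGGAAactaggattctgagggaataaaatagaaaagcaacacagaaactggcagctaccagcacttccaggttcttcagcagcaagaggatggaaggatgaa
C1qb: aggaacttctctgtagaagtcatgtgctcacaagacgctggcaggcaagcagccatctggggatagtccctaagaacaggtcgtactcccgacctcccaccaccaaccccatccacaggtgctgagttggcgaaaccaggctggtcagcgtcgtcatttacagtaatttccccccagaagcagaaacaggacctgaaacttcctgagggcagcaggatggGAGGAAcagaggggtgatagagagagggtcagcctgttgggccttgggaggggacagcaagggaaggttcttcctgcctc
Cd5l: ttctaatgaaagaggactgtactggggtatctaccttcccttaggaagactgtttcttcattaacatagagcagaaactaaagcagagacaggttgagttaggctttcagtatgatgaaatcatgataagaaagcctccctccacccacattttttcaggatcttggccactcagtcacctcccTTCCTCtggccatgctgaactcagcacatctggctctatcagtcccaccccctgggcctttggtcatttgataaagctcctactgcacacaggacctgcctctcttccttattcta
Clec4f: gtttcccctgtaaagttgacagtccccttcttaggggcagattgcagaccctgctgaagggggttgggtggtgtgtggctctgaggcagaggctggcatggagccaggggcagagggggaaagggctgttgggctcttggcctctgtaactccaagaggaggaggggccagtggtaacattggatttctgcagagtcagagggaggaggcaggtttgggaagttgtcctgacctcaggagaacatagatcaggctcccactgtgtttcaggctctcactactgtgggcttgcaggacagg

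A promoter was given for 7 of the 10 markers, and 5 of these 7 held GAGGAA on either strand, against 28.28% of 32851 promoters of the same length. Vsig4 held it at 155 and 53 bases before the start, C1qb at 30, Cd5l at 66 and Marco at 146. Cd68 held it 225 bases before and 30 bases after the start. Clec4f and Timd4 held no match in this window. The half-site of the MAF factors searched here, TGCTGAC, was found on either strand in 1 of the 7, Timd4, and in 4.673% of all promoters. The motifs do not overlap in letters. Such matches describe these letters and are no evidence of binding.

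Levels of different genes were compared as CPM per kilobase of exon, over all 16 libraries. Cd5l stood highest with 64.2 ± 14.7 CPM per kb (SD, n = 16), followed by Clec4f with 53.3 ± 10.9, C1qa with 49.2 ± 10.8 and C1qb with 49.0 ± 9.30 CPM per kb. Vsig4 had 30.2 ± 9.27 and Csf1r 13.1 ± 3.47 CPM per kb. Cd68 had 8.90 ± 2.34, Adgre1 7.48 ± 2.54, Marco 7.35 ± 7.88 and Timd4 4.00 ± 1.52 CPM per kb. Some neighbours in this order were well apart within a library and others were not. C1qb lay above Vsig4, Vsig4 above Csf1r, and Csf1r above Cd68 in 16 of 16 libraries, and Cd5l lay above Clec4f in 15 of 16. C1qa lay above C1qb in 9 of 16 libraries and Marco above Timd4 in 10 of 16, so these neighbours were not separated. Of the exon bases of Csf1r in GENCODE vM21, 15.12% also lie in exons of Hmgxb3 on the other strand, and the sources used here do not say whether counting used strand; the exons of the other 9 overlap no other gene.

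**Figure D1:**
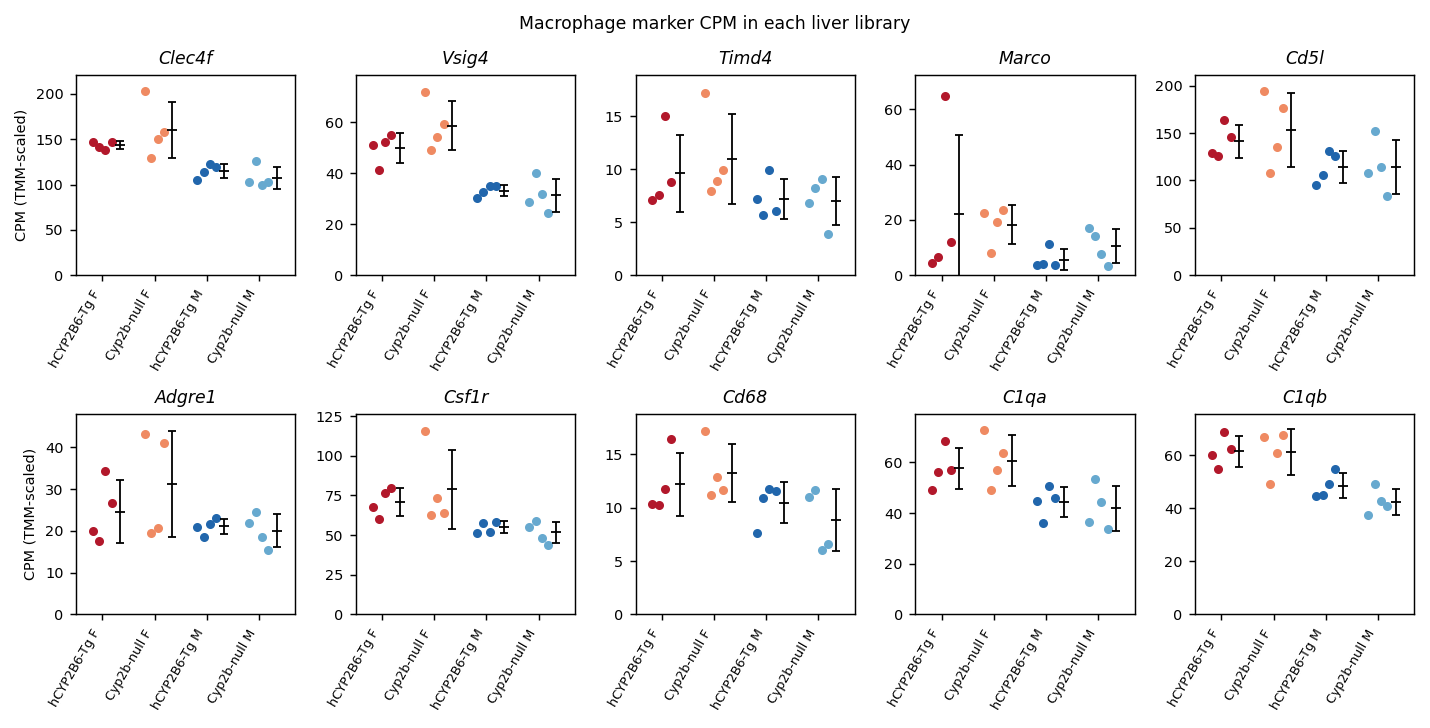
CPM (TMM-scaled, linear axis from 0, own scale in each panel) of the 10 markers in each of 16 liver libraries. Points are libraries, and bars give the mean and SD of each group of 4 (the SD bar of Marco in hCYP2B6-Tg females runs below 0 and is cut there). For Vsig4, the 8 female libraries sit between 41.1 and 71.8 CPM, above the 8 male libraries between 24.4 and 40.1, while hCYP2B6-Tg and Cyp2b-null libraries of the same sex overlap for every marker.

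Human CYP2B6 went with no detected change of any macrophage marker. In females, 0 of 10 passed an adjusted p of 0.05 between hCYP2B6-Tg and Cyp2b-null livers (edgeR's quasi-likelihood F test, two-sided, Benjamini-Hochberg over 13470 genes), where 0% of all tested genes did. In males 0 of 10 passed, against 0.126% of all tested genes, and over both sexes 0 of 10 passed, against 0.0148%. None of the 10 had an unadjusted p under 0.05 in these comparisons, where 979 genes in females, 944 in males and 917 over both sexes did, and DESeq2 and limma voom also called 0 of 10 in each. For each marker the libraries of hCYP2B6-Tg and Cyp2b-null mice overlapped within each sex, while all 4 libraries of 1 genotype lay beyond all 4 of the other for 3.5% of tested genes in females and 4.76% in males.

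The estimates leave room for moderate changes. In females the log2 fold changes of hCYP2B6-Tg over Cyp2b-null ran from -0.34 for Adgre1 to 0.23 for Marco, with 8 of 10 below 0 and a median of -0.13, against 0.0018 over all tested genes. In males they ran from -0.84 for Marco to 0.26 for Cd68, with 8 of 10 above 0 and a median of 0.083, against -0.0040 over all tested genes. Leaving Marco aside, the 95% intervals of the other 9 lay between -0.92 and 0.42 in females and between -0.60 and 0.72 in males, so a change of 1 on the log2 scale lay outside all of them. Marco was too variable for such a bound, with intervals of -1.41 to 1.87 in females and -2.79 to 1.12 in males. These counts of signs moved when Cyp2b-null female 1 and Cyp2b-null male 4 were left out. Then 7 of 10 estimates were above 0 in females and 4 of 10 in males, again with 0 past the threshold. The 2 libraries were chosen after the values were seen, as the ends for most markers. The direction of this shift therefore follows from the choice.

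The genotype difference was set against itself between the sexes. For 9 of 10 markers it was lower in females than in males, by 0.12 (Cd5l) to 0.42 (Adgre1) on the log2 scale, with Marco at 1.07 in the other direction. The direction of Marco rests on 1 library: without hCYP2B6-Tg female 4 its difference was -0.40 (adjusted p = 0.963, edgeR), and 0 of 10 lay above 0. None of the 10 passed, the smallest adjusted p being 0.724 (Clec4f, edgeR), against 0.0371% of all tested genes, and 0 of 10 had an unadjusted p under 0.05, where 1017 genes did. Without the same 2 Cyp2b-null libraries, 5 of 10 differences were above 0, a shift whose direction again follows from the choice of these libraries. The difference between the sexes in hCYP2B6-Tg minus that in Cyp2b-null livers is the same number, so the sex effects given next were not shown to differ between the genotypes.

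Where macrophage markers differed by sex, they were higher in females. All 10 estimates of female over male were above 0 in hCYP2B6-Tg livers, with a median of 0.35 on the log2 scale, and all 10 in Cyp2b-null livers, with a median of 0.59, where the medians over all tested genes were 0.017 and 0.0041. In hCYP2B6-Tg livers 2 of 10 passed, Vsig4 and C1qb, both higher in females, against 10% of tested genes called in either direction and 4.54% called higher in females. In Cyp2b-null livers 5 of 10 passed, Vsig4, Clec4f, C1qb, C1qa and Csf1r, all higher in females, against 7.42% of tested genes called in either direction and 3.5% called higher in females. An unadjusted p under 0.05 was reached by 6 of 10 markers in hCYP2B6-Tg and 7 of 10 in Cyp2b-null livers. Of all 13470 tested genes, 3099 and 2661 reached it. All 4 female libraries lay above all 4 male libraries for 3 markers in hCYP2B6-Tg livers (Clec4f, Vsig4 and Csf1r), where 15.6% of tested genes separated in either direction, and for 4 in Cyp2b-null livers (these and C1qb), where 12.3% did. Across both genotypes, the 8 female libraries lay above the 8 male libraries for Clec4f, Vsig4 and Csf1r, and 4.33% of tested genes separated the sexes in either direction. The markers co-varied from library to library within groups (median r of 0.68 over 45 pairs, given below). The counts of signs and calls, by sex and by genotype, are therefore not counts of 10 independent genes.

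Among the surface receptors, Vsig4 had the smallest adjusted p of the 10 markers in both genotypes. Vsig4 had 51.0, 41.1, 52.1 and 54.8 CPM in hCYP2B6-Tg females, against 30.2, 32.6, 35.0 and 34.8 CPM in hCYP2B6-Tg males. It had 71.8, 49.2, 54.3 and 59.4 CPM in Cyp2b-null females, against 28.8, 40.1, 31.7 and 24.4 CPM in Cyp2b-null males. Every female library lay above every male library, the nearest pair being 41.1 CPM in a hCYP2B6-Tg female and 40.1 CPM in a Cyp2b-null male. The log2 fold change was 0.58 ± 0.13 (SE; edgeR adjusted p = 0.00504) in hCYP2B6-Tg and 0.90 ± 0.13 (adjusted p = 4.89e-05) in Cyp2b-null livers, and both calls held with each library left out in turn. Vsig4 lies on the X chromosome (GRCm38.p6, chrX:96247201-96293438, minus strand).

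Clec4f, the Kupffer lectin, passed in Cyp2b-null livers. Clec4f had 147, 142, 139 and 147 CPM in hCYP2B6-Tg females, against 105, 114, 122 and 119.7 CPM in hCYP2B6-Tg males. It had 203, 129.6, 150.0 and 158 CPM in Cyp2b-null females, against 103, 125, 99.0 and 102 CPM in Cyp2b-null males. The female libraries again lay above all male libraries, and the hCYP2B6-Tg females were close together, with a coefficient of variation of 2.86% against 19.4% in Cyp2b-null females. The log2 fold change was 0.58 ± 0.11 (SE; edgeR adjusted p = 0.000650) in Cyp2b-null livers. In hCYP2B6-Tg livers it was 0.32 ± 0.11, with an adjusted p of 0.0574 (edgeR) that did not pass. This value of Clec4f lay near the threshold and depended on the setting. With edgeR it passed with library totals as the only scaling (adjusted p = 0.0335) and with no filter on low counts (0.0391). It also passed with the 2 groups fitted alone (0.0171). It did not pass with the replicate block (0.180), RLE scaling (0.0661) or a minimum of 1 CPM in 4 libraries (0.0627). Neither DESeq2 (adjusted p = 0.0711) nor limma voom (0.0550) called it. With each of the 8 libraries left out in turn, edgeR did not call it (0.0670 to 0.153). Clec4f lies at chr6:83644542-83656116, minus strand.

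C1qb and C1qa were higher in Cyp2b-null females than in Cyp2b-null males, and C1qb passed narrowly in hCYP2B6-Tg livers. C1qb had 60.0, 54.7, 68.9 and 62.2 CPM in hCYP2B6-Tg females, against 44.8, 45.0, 49.0 and 54.9 CPM in hCYP2B6-Tg males, where the lowest female and the highest male library just overlapped. It had 66.9, 49.2, 60.8 and 67.7 CPM in Cyp2b-null females, against 37.5, 49.0, 42.7 and 40.7 CPM in Cyp2b-null males, which did not overlap. The log2 fold change of C1qb was 0.34 ± 0.11 (SE; edgeR adjusted p = 0.0459) in hCYP2B6-Tg and 0.52 ± 0.11 (adjusted p = 0.00267) in Cyp2b-null livers. The hCYP2B6-Tg call of C1qb was lost with DESeq2 (adjusted p = 0.0530), limma voom (0.0518), RLE scaling (0.0530), the replicate block (0.0883) and a filter that kept genes at 1 CPM or more in at least 4 libraries (0.0512). It held without hCYP2B6-Tg female 2 (adjusted p = 0.0397) or hCYP2B6-Tg male 5 (0.0311) and was lost without any of the other 6 libraries (0.0672 to 0.159), while the Cyp2b-null call held with each library left out. C1qa averaged 57.7 ± 8.11 CPM in hCYP2B6-Tg females, against 44.4 ± 6.04 CPM in hCYP2B6-Tg males, and 60.8 ± 9.94 CPM in Cyp2b-null females, against 41.9 ± 8.93 CPM in Cyp2b-null males (SD, n = 4 each). Its log2 fold change was 0.37 ± 0.14 (SE; edgeR adjusted p = 0.115) in hCYP2B6-Tg and 0.53 ± 0.14 (adjusted p = 0.0261) in Cyp2b-null livers. The C1qa call was lost without Cyp2b-null female 1 (adjusted p = 0.0808), female 5 (0.0690), male 1 (0.0780), male 3 (0.0519) or male 4 (0.0920). With the replicate block this call was lost as well (edgeR adjusted p = 0.0520). C1qc, the remaining chain and no member of the 10, had a log2 fold change of 0.38 ± 0.12 (adjusted p = 0.0512) in hCYP2B6-Tg and 0.53 ± 0.12 (adjusted p = 0.00696) in Cyp2b-null livers. The 3 chains are neighbours on chromosome 4, C1qb at 136880126 to 136886200, C1qc at 136889801 to 136892936 and C1qa at 136895916 to 136898844 (GRCm38.p6).

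Csf1r, the receptor that sustains macrophages, had 67.5, 60.0, 76.4 and 79.5 CPM in hCYP2B6-Tg females, against 51.4, 57.9, 52.2 and 58.3 CPM in hCYP2B6-Tg males. It had 116, 62.4, 73.5 and 64.0 CPM in Cyp2b-null females, against 55.1, 59.2, 48.3 and 44.0 CPM in Cyp2b-null males. The females lay above the males in both genotypes, and Cyp2b-null female 1 stood above all others. The log2 fold change of Csf1r was 0.37 ± 0.16 (SE; edgeR adjusted p = 0.178) in hCYP2B6-Tg and 0.60 ± 0.16 (adjusted p = 0.0272) in Cyp2b-null livers. Without Cyp2b-null female 1 the Cyp2b-null value was 0.38 (adjusted p = 0.0437), and without Cyp2b-null male 3 or male 4 the call was lost (adjusted p = 0.0856 and 0.0868). It was also lost with the 2 groups fitted alone (adjusted p = 0.115) and with the replicate block (0.0546).

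The other 5 markers did not pass in either genotype. Cd5l ran from 125.8 to 163 CPM in hCYP2B6-Tg females, against 94.8 to 131 CPM in hCYP2B6-Tg males, and from 107 to 194 CPM in Cyp2b-null females, against 83.1 to 152 CPM in Cyp2b-null males. The fold change of Cd5l on the log2 scale was 0.30 ± 0.20 (SE; edgeR adjusted p = 0.393) in hCYP2B6-Tg and 0.42 ± 0.20 (adjusted p = 0.256) in Cyp2b-null livers. Adgre1 gave 0.22 ± 0.27 and 0.63 ± 0.27 (adjusted p = 0.708 and 0.210, edgeR). Cyp2b-null females 1 and 5 had 43.3 and 41.0 CPM of Adgre1, where all other libraries lay between 15.3 and 34.4 CPM. Cd68 gave 0.21 ± 0.21 and 0.58 ± 0.22 (adjusted p = 0.607 and 0.117, edgeR), and its groups overlapped in both genotypes. Timd4, the marker of long-resident Kupffer cells, ran from 7.11 to 15.0 CPM in hCYP2B6-Tg females, against 5.68 to 9.88 CPM in hCYP2B6-Tg males, and from 7.93 to 17.2 CPM in Cyp2b-null females, against 3.87 to 9.05 CPM in Cyp2b-null males. Its log2 fold change was 0.39 ± 0.29 and 0.62 ± 0.30 (adjusted p = 0.468 and 0.255, edgeR).

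Marco varied far more between libraries of the same group than the other markers. Marco had 4.56, 6.74, 65.0 and 12.1 CPM in hCYP2B6-Tg females, against 22.4, 8.09, 19.2 and 23.6 CPM in Cyp2b-null females. It had 3.51, 4.15, 11.2 and 3.67 CPM in hCYP2B6-Tg males, against 16.9, 14.3, 7.70 and 3.15 CPM in Cyp2b-null males. The genotypes overlapped in each sex. The highest library, hCYP2B6-Tg female 4, had 20.6 times the level of the lowest, Cyp2b-null male 4, where the other 9 markers spanned 1.84-fold (C1qb) to 4.44-fold (Timd4). The SD of Marco within groups was 1.11 on the log2 scale, the 99.8th percentile of all tested genes, and that of Clec4f and C1qb was 0.165, at the 26.9th percentile. Female over male, Marco gave 1.90 ± 0.85 (SE; edgeR adjusted p = 0.202) in hCYP2B6-Tg and 0.83 ± 0.81 (adjusted p = 0.644) in Cyp2b-null livers. Without hCYP2B6-Tg female 4 the hCYP2B6-Tg value was 0.43 (adjusted p = 0.768), and the genotype difference in females was -1.23 (adjusted p = 0.742) in place of 0.23 (adjusted p = 0.981). Marco lies at chr1:120474538-120505024 (GRCm38.p6, minus strand).

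**Figure D2:**
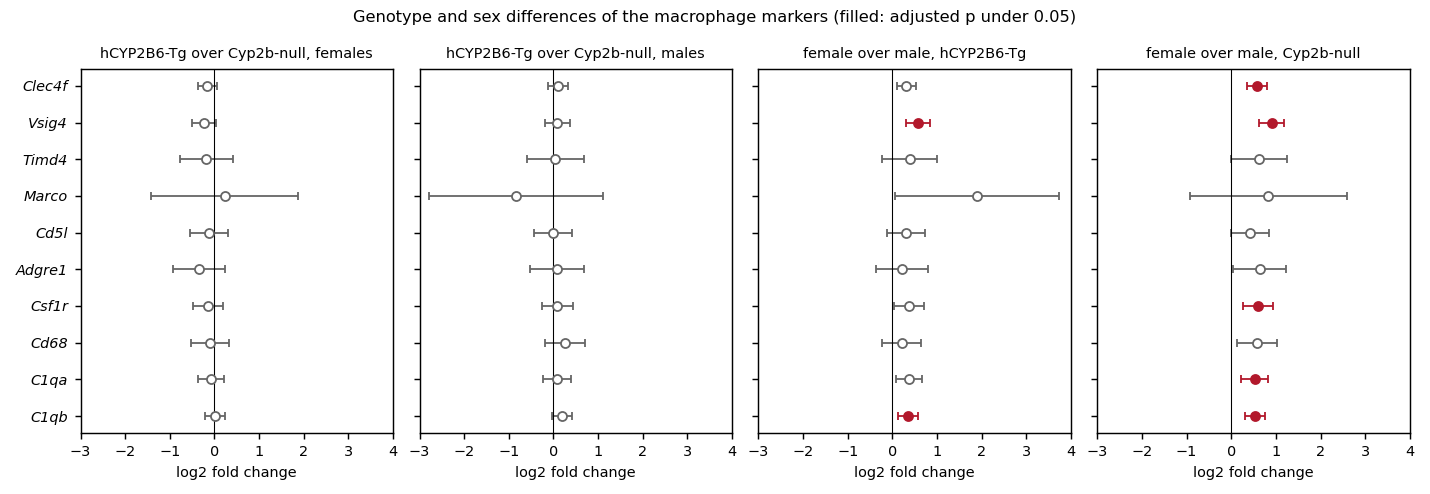
Log2 fold changes of the 10 markers with 95% intervals, hCYP2B6-Tg over Cyp2b-null, by sex (the 2 panels on the left) and female over male in each genotype (the 2 panels on the right). Filled points passed an adjusted p of 0.05: 0 of 10 and 0 of 10 by genotype, 2 of 10 by sex in hCYP2B6-Tg and 5 of 10 by sex in Cyp2b-null livers.

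Cyp2b-null female 1 and Cyp2b-null male 4 stood at the ends for most markers. Cyp2b-null female 1 was the highest of 16 for 8 of 10 markers and hCYP2B6-Tg female 4 for the other 2 (Marco and C1qb). Cyp2b-null male 4 was the lowest for 7 of 10, Cyp2b-null male 3 for Clec4f and Cd68, and Cyp2b-null male 1 for C1qb. The summed CPM of the 10 markers was 522 to 694 in hCYP2B6-Tg females, against 410.3 to 495 in hCYP2B6-Tg males, and 494 to 825 in Cyp2b-null females, against 357 to 538 in Cyp2b-null males. The 2 ends, 825 and 357 CPM, are the same 2 libraries. Cyp2b-null female 1 also had the lowest total of the series, 5584587 counts, while Cyp2b-null male 4 had 6859833. Bile duct markers summed to 108 CPM in Cyp2b-null male 4, against 20.5 to 57.7 CPM in the other libraries. Pancreas markers summed to 54.3 CPM in it, against 9.30 to 24.6 CPM in the others. B cell markers summed to 69.9 CPM in Cyp2b-null male 4 and 101 CPM in Cyp2b-null female 3, against 13.1 to 26.3 CPM in the others. The part of depth or of such tissue content in the result was not tested. Cyp2b-null female 1 and male 4 were then left out, a choice made after the values were seen. Without them 3 of 10 markers passed by sex in Cyp2b-null livers (Clec4f, Vsig4 and C1qb). In hCYP2B6-Tg livers 3 of 10 passed (Clec4f, Vsig4 and Csf1r), and all 10 estimates stayed above 0 in both genotypes.

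Within the groups the markers co-varied from library to library. After the mean of each group was subtracted from log2 CPM, Pearson's r over the 16 libraries lay between 0.29 (Clec4f with Marco) and 0.90 (Vsig4 with Cd5l) for the 45 pairs, with a median of 0.68, and 38 of 45 were above 0.5. In Cyp2b-null female 1 and Cyp2b-null male 2 all 10 markers lay above their group mean, and in hCYP2B6-Tg female 2, Cyp2b-null female 3 and Cyp2b-null male 4 all 10 lay at or below it. Cd5l followed the mean of the other markers most closely (r = 0.91, rho = 0.90, rank 2 among 13461 genes), then Adgre1 (r = 0.85, rho = 0.87) and Timd4 (r = 0.83, rho = 0.86). Vsig4 had r = 0.81 and rho = 0.80, C1qa r = 0.82 and rho = 0.81, and Marco r = 0.72 and rho = 0.77. Cd68 (r = 0.60, rho = 0.61, rank 275) and Clec4f (r = 0.64, rho = 0.58, rank 176) followed it least. For each marker r was also taken without the 2 libraries farthest from the median in the mean of its other markers (n = 14). This r ran from 0.63 (C1qb) to 0.91 (Cd5l), and that of Clec4f was 0.80, so its low place rests on 2 libraries. These are descriptions: the genes of a library share its RNA, depth and scaling.

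**Figure D3:**
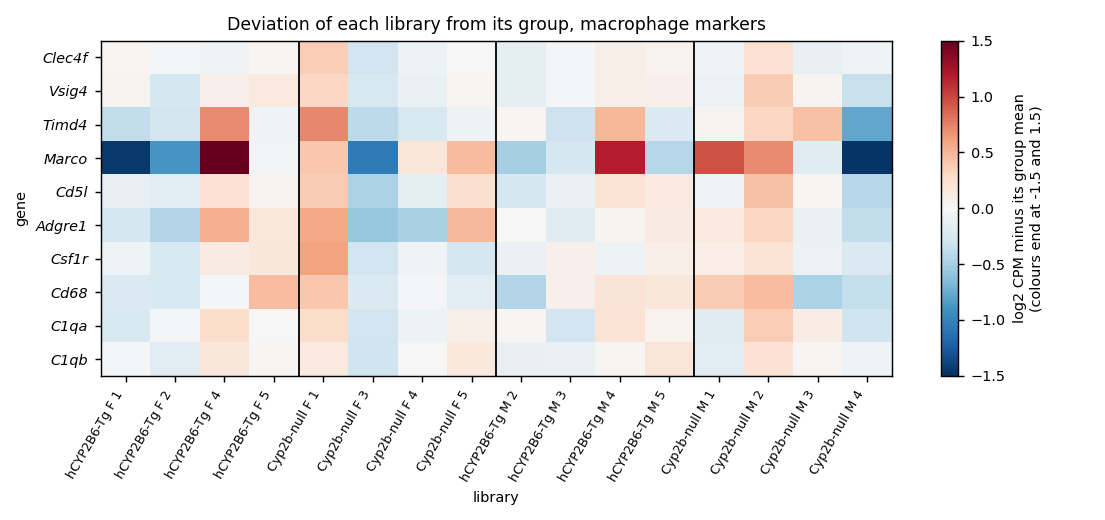
Log2 CPM of each marker (rows) in each library (columns, in 4 groups) minus the mean of that marker in its group, coloured from -1.5 (blue) to 1.5 (red), with values beyond these drawn in the end colour. In 5 of 16 columns all 10 markers lie on one side, red in Cyp2b-null female 1 and Cyp2b-null male 2 and blue in hCYP2B6-Tg female 2, Cyp2b-null female 3 and Cyp2b-null male 4, and the other 11 columns are mixed. Marco has the strongest colours.

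The genes outside the list whose pattern was most like that of the 10 markers were chosen by r with the marker mean after group means were subtracted, over 16 libraries. These 8 were Trpm2 (r = 0.92), a calcium channel of phagocytes and other cells; Lgmn (r = 0.89), a lysosomal protease; Axl (r = 0.87), a receptor for dying cells; C1qc (r = 0.85); Ptger2 (r = 0.85), a prostaglandin E2 receptor; Lyz2 (r = 0.85), lysozyme of myeloid cells; Siglece (r = 0.83), a sialic acid receptor of myeloid cells; and Cybb (r = 0.82), a subunit of the phagocyte NADPH oxidase. Their rho ran from 0.73 (Ptger2) to 0.91 (Trpm2). The 2 libraries farthest from the median in the mean of all markers were hCYP2B6-Tg female 4 and Cyp2b-null male 4. Without them (n = 14) r ran from 0.77 (Ptger2) to 0.92 (Lgmn). By the same measure the mean of 9 genes of all leukocytes had r = 0.91, 18 phagocytic and scavenger receptors 0.85, 18 genes of the CSF1R pathway 0.82, 21 other Kupffer genes 0.75 and 17 cytokines and sensors 0.74. The means of 13 endothelial genes (r = 0.098), 12 stellate genes (r = 0.10), 10 genes of recruited macrophages (r = 0.33) and 9 hepatocyte genes (r = -0.26) followed the markers less. Without the same 2 libraries r was 0.42 for the endothelial, 0.17 for the stellate, 0.20 for the recruited macrophage and -0.26 for the hepatocyte genes, so the order among these lists rests on those libraries. The mean of 4 B cell genes went the other way (r = -0.54, rho = -0.39, and r = -0.56 without those libraries). The remaining lists had r = 0.049 (9 complement genes), 0.045 (3 dendritic cell genes), -0.071 (8 liver X receptor targets), -0.11 (5 red cell genes) and -0.28 (3 bile duct genes).

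Some other genes of Kupffer cells differed by sex. Of 21 tested, 5 were higher and 1 lower in females of hCYP2B6-Tg livers, where 4.54% of all tested genes were higher and 10% were called in either direction. In Cyp2b-null livers 3 were higher and 1 lower in females, where 3.5% of all tested genes were higher and 7.42% were called in either direction. The medians of the 21 were 0.29 and 0.38 on the log2 scale. Ctsc, the lysosomal protease cathepsin C, averaged 160.3 ± 20.4 CPM in hCYP2B6-Tg females, against 89.3 ± 3.32 CPM in hCYP2B6-Tg males, and 169 ± 38.2 CPM in Cyp2b-null females, against 96.2 ± 6.75 CPM in Cyp2b-null males (SD, n = 4 each). Its log2 fold change was 0.84 ± 0.12 (SE; edgeR adjusted p = 2.28e-05) and 0.82 ± 0.12 (adjusted p = 3.74e-05). Folr2, a folate receptor of resident macrophages, gave 0.47 ± 0.14 (adjusted p = 0.0347) and 0.53 ± 0.14 (adjusted p = 0.0215, edgeR). Cfp (properdin, 0.99), Il18bp (0.53) and Nr1h3 (0.26, which encodes liver X receptor alpha) passed in hCYP2B6-Tg livers, and C1qc passed in Cyp2b-null livers. C6, a complement component that hepatocytes also make, was lower in females, by -2.90 ± 0.26 (adjusted p = 6.67e-06) and -2.93 ± 0.26 (adjusted p = 5.19e-06, edgeR). No gene of the list passed by genotype.

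Of the ligands of Csf1r, Csf1 averaged 11.2 ± 0.737 CPM in hCYP2B6-Tg females, against 6.23 ± 0.173 CPM in hCYP2B6-Tg males, and 8.92 ± 2.22 CPM in Cyp2b-null females, against 7.27 ± 2.46 CPM in Cyp2b-null males (SD, n = 4 each). The log2 fold change of Csf1, female over male, was 0.84 ± 0.20 (SE; edgeR adjusted p = 0.00684) in hCYP2B6-Tg and 0.33 ± 0.20 (adjusted p = 0.393) in Cyp2b-null livers. By genotype Csf1 gave 0.31 ± 0.19 in females and -0.20 ± 0.21 in males (adjusted p = 0.779 and 0.909, edgeR), and the difference between these, 0.51 ± 0.28, did not pass (adjusted p = 0.706). Il34, the other ligand, had 2.32 ± 0.901 CPM in hCYP2B6-Tg females, against 1.37 ± 0.618 CPM in hCYP2B6-Tg males, and 1.36 ± 0.513 CPM in Cyp2b-null females, against 1.29 ± 0.671 CPM in Cyp2b-null males, and did not pass in any comparison. In all, 3 of 18 genes of this pathway were higher and 1 lower in hCYP2B6-Tg females, and 2 higher and 1 lower in Cyp2b-null females, to be read against the same shares of all tested genes (10% and 7.42% in either direction). Fcer1g, a signalling chain of immune receptors, was higher in both (0.56 ± 0.17 and 0.73 ± 0.18, adjusted p = 0.0415 and 0.00899, edgeR) and Cebpb, a transcription factor that hepatocytes also express, lower in both (-0.47 ± 0.13 and -0.58 ± 0.13, adjusted p = 0.0209 and 0.00640). Spi1, which encodes PU.1, passed in hCYP2B6-Tg livers (0.77 ± 0.21, adjusted p = 0.0206), with 0.11 ± 0.21 (adjusted p = 0.839) in Cyp2b-null livers. Maf passed in Cyp2b-null livers (0.43 ± 0.12, adjusted p = 0.0262), with 0.050 ± 0.12 (adjusted p = 0.853) in hCYP2B6-Tg livers. The difference of the sex effect between the genotypes was 0.66 ± 0.30 for Spi1 and did not pass (adjusted p = 0.644, edgeR). None of the 18 genes passed in this difference, so their sex effects were not shown to differ between the genotypes.

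Among 18 phagocytic and scavenger receptors, 3 were higher in females of hCYP2B6-Tg livers and 3 of Cyp2b-null livers, where 4.54% and 3.5% of all tested genes were higher. In either direction 10% and 7.42% of all tested genes were called, also to be set beside the lists that follow. Siglec1, a sialic acid receptor of macrophages, passed in both (0.70 ± 0.19 and 0.75 ± 0.19 on the log2 scale, adjusted p = 0.0185 and 0.0141, edgeR). Fcgr3 and Scarb1 passed in hCYP2B6-Tg livers and Clec12a and Cd300a in Cyp2b-null livers. Of 9 complement genes around C1q, C3 (0.86 ± 0.12, adjusted p = 2.81e-05) and C4b (0.36 ± 0.11, adjusted p = 0.0298), which hepatocytes make in bulk, were higher in hCYP2B6-Tg females, and C1qc in Cyp2b-null females. Of 8 targets of the liver X receptor, Nr1h3 was higher and Lpcat3 and Plin2 lower in hCYP2B6-Tg females, and 0 passed in Cyp2b-null livers. None of 17 cytokines and sensors and none of 10 tested genes of recruited macrophages passed by sex (edgeR). An unadjusted p under 0.05 was reached by 1 and 2 of them in hCYP2B6-Tg and 6 and 2 in Cyp2b-null livers. Of all 13470 tested genes, 3099 in hCYP2B6-Tg and 2661 in Cyp2b-null livers reached it.

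Genes listed for monocyte-derived and lipid-associated macrophages ranged from none detected to high levels. Of 20 on that list, 10 passed the filter. The list summed to 427 to 474 CPM in hCYP2B6-Tg females, 441 to 524 CPM in Cyp2b-null females, 437 to 484 CPM in hCYP2B6-Tg males and 399 to 471 CPM in Cyp2b-null males. Most of this was Ctsd, a lysosomal protease that many cell types make, with 325 ± 16.8 CPM in hCYP2B6-Tg females, 338 ± 21.8 CPM in Cyp2b-null females, 358 ± 23.9 CPM in hCYP2B6-Tg males and 332 ± 17.4 CPM in Cyp2b-null males (SD, n = 4 each). Lyz2 came next, with 51.7 to 109.8 CPM in hCYP2B6-Tg females, 70.9 to 101 CPM in Cyp2b-null females, 43.5 to 64.6 CPM in hCYP2B6-Tg males and 49.0 to 70.2 CPM in Cyp2b-null males. At the other end, Trem2 had 0 counts in all 16 libraries, which allows up to 0.312 to 0.540 CPM in a library from counting error alone. The treatment of multi-mapped reads is not given, so these 0 counts do not show that its RNA was absent. Gpnmb had 7 counts in the 4 hCYP2B6-Tg females, 3 in the Cyp2b-null females, 10 in the hCYP2B6-Tg males and 6 in the Cyp2b-null males. Ccr2, the receptor that draws monocytes into tissue, averaged 1.79 ± 0.982 CPM in hCYP2B6-Tg females, 1.40 ± 0.609 CPM in Cyp2b-null females, 1.86 ± 0.717 CPM in hCYP2B6-Tg males and 2.11 ± 1.41 CPM in Cyp2b-null males (SD, n = 4 each). Clec7a had the smallest p of the list, 0.60 ± 0.23 in hCYP2B6-Tg and 0.48 ± 0.23 in Cyp2b-null livers by sex (adjusted p = 0.110 and 0.258, edgeR). The median of the 10 tested genes by sex was 0.031 and 0.045 on the log2 scale, and no gene passed by genotype.

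**Figure D4:**
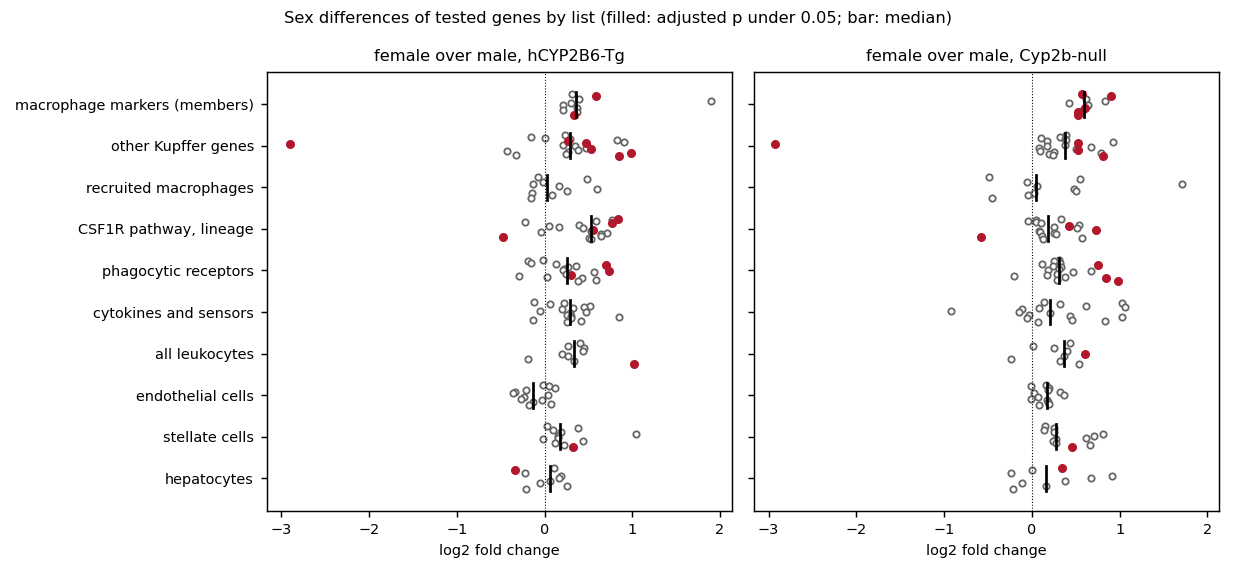
Log2 fold change of female over male for each tested gene of 10 lists (rows), in hCYP2B6-Tg livers (left) and Cyp2b-null livers (right). Open and filled points are genes, filled ones with an adjusted p under 0.05, and the vertical bar is the median of the list, 0.35 and 0.59 for the macrophage markers against 0.031 and 0.045 for recruited macrophages.

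Markers of other cell types were read beside the difference between the sexes, and their part in it was not tested. The calls named here are to be set against the shares of all tested genes called in either direction. These shares were 10% in hCYP2B6-Tg and 7.42% in Cyp2b-null livers. Of 9 genes of all leukocytes, 8 estimates were above 0 in each genotype and 1 passed in each (Rac2 in hCYP2B6-Tg, Cd53 in Cyp2b-null livers), and their summed level overlapped, with 140.0 to 166 CPM in hCYP2B6-Tg females, 134 to 155 CPM in hCYP2B6-Tg males, 131 to 175 CPM in Cyp2b-null females and 124 to 161 CPM in Cyp2b-null males. Of 12 stellate and fibroblast genes, 11 were above 0 in hCYP2B6-Tg and 12 in Cyp2b-null livers, with Ecm1 past the threshold in both. Their summed level separated the sexes, with 452 to 511 CPM in hCYP2B6-Tg females against 382 to 432 CPM in hCYP2B6-Tg males, and 476 to 543 CPM in Cyp2b-null females against 349 to 445 CPM in Cyp2b-null males. Of 13 endothelial genes 4 and 11 were above 0 and 0 passed, with sums of 389.6 to 538 CPM in hCYP2B6-Tg females, 465 to 529.7 CPM in hCYP2B6-Tg males, 386 to 574 CPM in Cyp2b-null females and 437 to 472 CPM in Cyp2b-null males. T and NK cells and neutrophils left little RNA: 1 of 13 T and NK cell genes and 1 of 11 neutrophil genes passed the filter. The T and NK list summed to 4.87 to 18.1 CPM in a library and the neutrophil list to 2.16 to 6.50 CPM. Of 9 B cell genes, 4 passed the filter. The B cell list summed to 15.9 to 26.3 CPM in hCYP2B6-Tg females, 17.5 to 101 CPM in Cyp2b-null females, 13.1 to 21.8 CPM in hCYP2B6-Tg males and 14.9 to 69.9 CPM in Cyp2b-null males. Its highest sums were those of Cyp2b-null female 3 (101 CPM) and Cyp2b-null male 4 (69.9 CPM). Of 3 tested dendritic cell genes Cst3 was lower in Cyp2b-null females, and Il2rb, the tested T and NK gene, was higher in hCYP2B6-Tg females. Of 9 hepatocyte genes Ttr was lower in hCYP2B6-Tg females and Alb higher in Cyp2b-null females; Alas2 of red cells and Cfd of fat cells were lower in females of both genotypes, Cela1 of the pancreas in Cyp2b-null females, and 0 of 3 bile duct genes passed.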

How the data were processed

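Liver RNA was sequenced from 16 mouse libraries (Trizol extraction, NEB Next Ultra kit, per the labels). The deposited table holds raw read counts per gene symbol, made by the authors; the tools in the submitters' processing notes are edgeR, Subread, GSNAP, Trimmomatic and FastQC, with the build GRCm38.p6. The sources used here do not give their versions, the strand setting or the treatment of multi-mapped reads. A row for the human transgene was not analysed here.

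Each library took its genotype, sex and number from its title. Genes passing filterByExpr (13470) were scaled by TMM and tested in 1 fit of all 16 libraries in 4 groups with edgeR's quasi-likelihood F test (robust, two-sided; R 4.3.3, edgeR 4.0.16, limma 3.58.1, DESeq2 1.42.0), adjusted over all 13470 genes with a threshold of 0.05. Each standard error was the log2 fold change over the root of F. Log2 CPM used a prior count of 2, and exon lengths came from GENCODE vM21. The test was run on simulated counts with known changes first. No pair of libraries within a group looked like copies (chi-square per degree of freedom 6.53 to 19.7 in 24 pairs). Floors cover counting error only.

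The 10 markers and 19 other lists with 237 genes were chosen with earlier results of these data known. Named from each list were up to 4 genes past the threshold with the smallest adjusted p, or else the gene with the smallest p, and always Csf1, Il34 and C1qc; the 8 genes most like the markers were chosen by Pearson's r. Trem2, Gpnmb, Ccr2, Ctsd, Cfp, Il18bp, Maf, Cd300a and Nr1h3 as a Kupffer gene are named outside this rule, with their values seen. Alternatives were other scalings, other filters, DESeq2, limma voom, the 2 groups alone, a replicate block and leaving out each library.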

Additional observations from a re-analysis of the deposited data

Results flagged for a closer look

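In groups of 4, a library was picked out when its gap to the nearest other library took up nearly the whole range of the group (Dixon's criterion at 95%, which chance meets in about 1 of 20 groups). Of 40 tests, 10 markers in 4 groups, 3 were picked out. Marco was 65.0 CPM in hCYP2B6-Tg female 4, where the other hCYP2B6-Tg females had 4.56 to 12.1 CPM. Marco was 11.2 CPM in hCYP2B6-Tg male 4, where the other hCYP2B6-Tg males had 3.51 to 4.15 CPM. Clec4f was 125 CPM in Cyp2b-null male 2, where the other Cyp2b-null males had 99.0 to 103 CPM.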

How the results depend on the processing

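No macrophage marker passed by genotype, or in the difference of the genotype effect between the sexes, under any alternative run, and all 10 estimates of female over male stayed above 0 in both genotypes wherever the number passing was recomputed. Among markers by sex, Vsig4 alone passed in hCYP2B6-Tg livers with RLE scaling, a minimum of 1 CPM in 4 libraries, DESeq2 or limma voom (1 marker each), 3 passed with library totals only or no filter (Clec4f, Vsig4 and C1qb), 4 when the 2 groups were fitted alone (these and Csf1r), and leaving out a library gave 1 to 2. In Cyp2b-null livers 6 passed with no filter (Cd68 added) and 4 with the 2 groups alone (Csf1r lost), leaving out a library gave 3 to 5, and leaving out both Cyp2b-null female 1 and male 4 gave 3. Deviations of same-numbered libraries of different groups were little related (r from -0.107 to 0.122 over 12 pairs, 1 of them over 0.1). The highest r was that of hCYP2B6-Tg female 4 with hCYP2B6-Tg male 4. A low r over all genes cannot show whether the numbers pair libraries. With the replicate block 1 marker passed by sex in hCYP2B6-Tg (Vsig4) and 3 in Cyp2b-null livers (Clec4f, Vsig4 and C1qb). Over all genes the genotype calls were few and moved. In females 0 became 12 with no filter, 12 with DESeq2, 2 with the replicate block and 0 to 3 without a library. In males 17 became 62 with no filter, 47 with DESeq2, 11 with voom, 5 with the block and 2 to 8 without a library. Over both sexes 2 became 34 with no filter, 31 with DESeq2 and 0 to 4 without a library, and for the difference 5 became 36 with no filter, 16 with DESeq2, 11 with the block and 0 to 19 without a library. The cause was not tested.

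Marker estimates near 0 changed sign, none of them past the threshold. By genotype in females, C1qb was -0.00019 with RLE, -0.0038 with no filter, -0.00082 with the 1 CPM minimum, -0.00065 with DESeq2 and -0.019 with the block, and Marco -0.56 with voom and -0.15 with the block. In males Cd5l was 0.0032 with RLE, 0.020 with no filter, 0.0027 with DESeq2 and 0.021 with voom. Over both sexes C1qa was -0.010 with library totals only and -0.045 with the block, and Csf1r 0.0050 with the block. Without a library, the range in females was -1.23 to 0.57 for Marco, -0.087 to 0.059 for C1qb, -0.46 to 0.087 for Timd4, -0.26 to 0.0050 for Cd5l, -0.25 to 0.080 for Csf1r, -0.29 to 0.027 for Cd68 and -0.17 to 0.011 for C1qa. In males it was -0.12 to 0.17 for Cd5l, -0.16 to 0.20 for Timd4, -0.016 to 0.23 for Vsig4, -0.031 to 0.20 for Adgre1 and -0.0090 to 0.22 for C1qa. Over both sexes it was -0.079 to 0.088 for Csf1r, -0.043 to 0.075 for C1qa, -0.0093 to 0.17 for Cd68, -0.074 to 0.038 for Clec4f, -0.21 to 0.069 for Timd4 and -0.13 to 0.026 for Cd5l. For the difference it was -0.40 to 1.68 for Marco, -0.51 to 0.035 for Timd4 and -0.29 to 0.0050 for Cd5l.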
